A study of Rubus occidentalis with 14 samples.

Results

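In fruit of black raspberry (Rubus occidentalis), 100 genes kept their means within a set band over the first 4 of 5 fruit stages and were higher at stage 5. They were chosen from the 33253 gene identifiers of the deposited table by their stage means of normalised read counts (reads per gene divided by 1 size factor per library). A gene needed a stage 5 mean of at least 100 and log2 means of stages 1 to 4, taken after adding 10, within 1 of each other. Among the 100 genes the range of these log2 means had a median of 0.69 and reached 0.99. Its score was the log2 stage 5 mean minus the highest of the earlier 4, again after adding 10. The rule asked for a score above 0.5 and took the 100 highest. A gene within this band over stages 1 to 4 is said to have a level start. The added 10 narrows the band of genes with few reads, and with 1 added in its place 83 of the 100 members still passed. Of 5384 genes with a level start and enough signal at stage 5, 373 passed the score limit, so 273 lay below the 100 described here. The values of all 14 libraries entered the choice, so differences of these genes between stages are descriptions and carry no test.

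The fruits came from plants of 1 advanced breeding selection, NC 349, at a research station, and poly(A) RNA was sequenced from stages numbered 1 to 5. Every group was fruit of that selection with no treatment named other than its stage, with 3 libraries each for stages 1, 2, 3 and 5 and 2 for stage 4. The library names carry the codes Gr, Re, So, Tu and Bl for the stages, which the labels do not spell out, and the age of the fruits is not given in them. In stages 1, 2, 3 and 5 replicates 2 and 3 carry the same title code and replicate 1 another, so an SD over 3 libraries may cover fewer than 3 separate samples. The titles number the stage 4 libraries 1 and 2, while their library names end in br2 and br3. Libraries are called biological replicates without a statement of how plants or fruits were divided, so a p-value here covers only the scatter of the sequenced libraries, and technical scatter is included in it.

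Black raspberry is an aggregate fruit, made of many small drupelets that each hold a seed. During ripening such fruit loses chlorophyll, gains anthocyanin pigment, takes up sugars, forms volatiles and softens as enzymes take apart the cell walls. The identifiers come without gene names and no annotation was used here, so no role is given for any gene, lists of ripening pathways were not counted, and the label fruit was not checked against marker genes. Levels of different genes are not compared as transcript abundance, because gene lengths were not used.

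The libraries held 7576338 to 39938265 reads, and a single read was worth 0.319 to 2.76 normalised counts. The median member was covered by 70.5 reads in the library where this median was lowest and by 593.5 where it was highest. All 100 members passed the filter of the tests (at least 2 libraries at 10 normalised counts), which left 19234 genes. Of the members, 96 passed it on stages 1 to 4 alone and 4 only through stage 5, so the filter gives no support to their difference. Means were under 10 normalised counts in each of the earlier stages for 4 members.

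As a group, and with the deposited scaling, the members stayed low for 4 stages and stood apart in all 3 libraries of stage 5. The rule had chosen them for a higher stage 5 mean, so this is a description only. Each gene was set against its own average over stages 1 to 4, as log2 of the normalised count plus 10. The median member lay at -0.16, -0.12 and -0.26 in the stage 1 libraries and at -0.27, -0.11 and -0.18 in those of stage 2. It lay at -0.03, 0.19 and -0.07 in stage 3 and at 0.23 and 0.20 in stage 4. In stage 5 it reached 1.48, 1.33 and 1.36, so the stage 5 libraries lay close together and far from the other 11. In bulk fruit RNA, more cells of a type and more RNA per cell cannot be told apart.

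**Figure D1:**
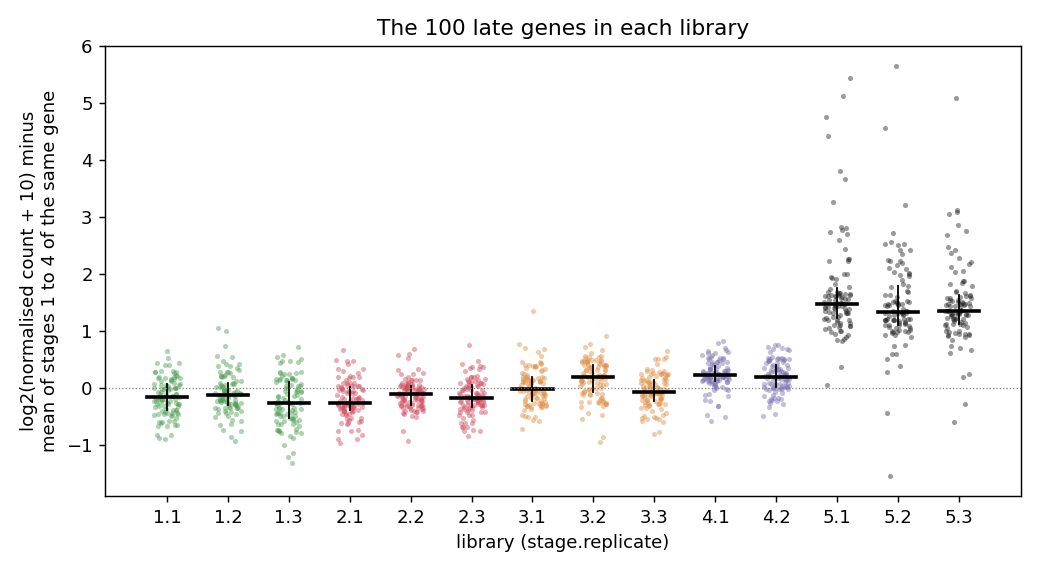
Each point is 1 of the 100 genes in 1 library (x axis, stage and replicate), placed by its log2(normalised count + 10) minus the mean of its stage 1 to 4 values (y axis). Black bars are medians and vertical lines span the quartiles. The medians lie between -0.27 and 0.23 in stages 1 to 4 and between 1.33 and 1.48 in stage 5, where the points spread most widely.

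The sum over the 100 genes was highest at stage 5 both as a share and as normalised counts. Stage 1 libraries gave them 0.461% ± 0.0151 of all normalised counts (SD, n = 3), those of stage 2 gave 0.367% ± 0.0204 (n = 3) and those of stage 3 gave 0.286% ± 0.0124 (n = 3). Their part was smallest at stage 4, with 0.277% ± 0.0121 (n = 2), and largest at stage 5, with 0.572% ± 0.061 (n = 3). Seen as a share of all reads, the group therefore shrank before it grew, and stage 5 stood 2.07-fold over stage 4. As a sum of normalised counts it moved from 52417 ± 802 in stage 1 to 67135 ± 1639 in stage 4 and 157660 ± 16466 in stage 5, which is 2.35-fold over stage 4. The normalised totals of whole libraries also grew, from 11371990 ± 236974 in stage 1 to 27552453 ± 336358 in stage 5.

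The level start therefore depended on the scaling. The direction of the last step, which the rule had set, was the same under the 4 scalings tried. With the deposited scaling the median member changed by 0.40 on the log2 scale from stage 1 to stage 4 and by 1.17 from stage 4 to stage 5. With every library set to the same total, the first of these became -0.57 and the second stayed at 0.98. After quantile normalization they were 0.90 and 0.9987. All 100 genes had a higher mean in stage 5 than in stage 4 under each of these scalings. With the deposited scaling the rule had put every stage 5 mean at least 0.86 above each earlier one (log2), so nothing is read from this. Stage 5 was the highest of the 5 stages for 84 genes with equal totals and for 97 after quantile normalization, and 15 and 3 genes had a stage 5 mean below that of stage 1. Only 24 and 43 of the members passed the whole rule under these 2 scalings, against 98 with upper-quartile scaling.

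**Figure D2:**
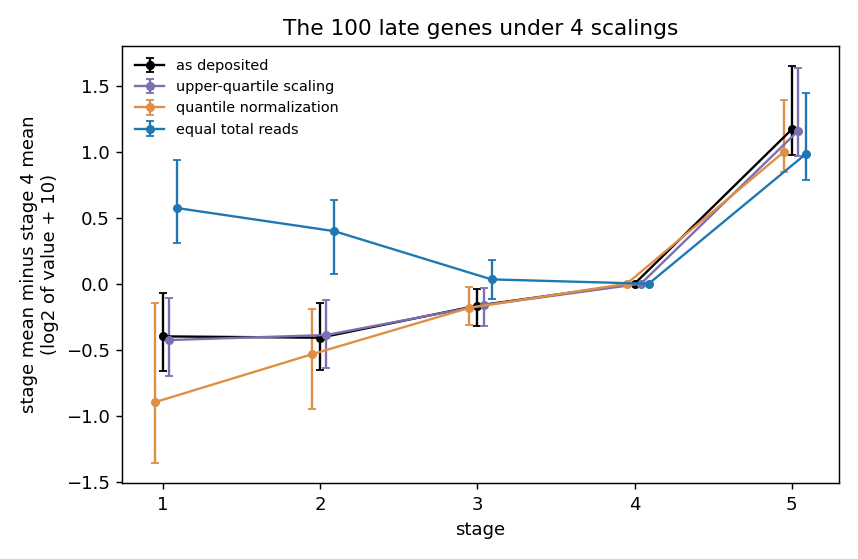
The median of the 100 genes in each stage (x axis) is drawn relative to stage 4, as log2 of the stage mean plus 10 (y axis), with lines from the 25th to the 75th percentile over genes, under 4 scalings. The lines run together from stage 4 to stage 5 (0.98 to 1.17) and part at stage 1 (0.57 with equal totals, -0.90 after quantile normalization).

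Most of the differences were modest. The fold of the stage 5 mean over the highest earlier mean had a median of 2.21. It reached at least 4 in 14 genes and stayed under 2 in 34. Scores ran from 0.86 to 4.80 with a median of 1.09, and 11 were at least 2. Stage by stage, from 1 to 5, the median member had a mean of 171, 152, 185, 201 and 515 normalised counts. At stage 5, 31 genes had means of at least 1000 and 26 had means under 200. The list thus holds genes with many reads and genes with few.

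With the deposited scaling, a small share of the distance was already covered at stage 4. Within the allowed band, stage 4 held the highest earlier mean of 63 members, stage 1 that of 15, stage 3 that of 13 and stage 2 that of 9. Among the 5384 genes with a level start and the same stage 5 minimum, stage 4 was the highest of these stages in 37.2%. Stage 4 lay above the mean of stages 1 to 3 in 86 members, with a median difference of 0.31 on the log2 scale, against 58.6% and 0.09 over the 5384. For the median member, 19.98% of the log2 distance from stages 1 to 3 up to stage 5 had been covered at stage 4. With equal totals this turned: stage 4 lay above the mean of stages 1 to 3 in 11 members, with a median difference of -0.37, and was the highest of the early stages in 4. After quantile normalization 84 members lay above, with a median of 0.52. These values share the stage means with the rule and are not tested.

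Ro06_G09727 had the highest score, 4.80, and the clearest separation of single libraries. It stood at 0.957, 0 and 2.32 normalised counts in replicates 1 to 3 of stage 1 and at 1.29, 1.67 and 0.66 in stage 2. In stage 3 it stood at 0.584, 17.9 and 7.51, and in stage 4 at 12.1 and 10.1. Stage 5 held 510.2, 733 and 494, so even the lowest of these libraries was far above the highest earlier one. The mean of 579 ± 133 in stage 5 (SD, n = 3) was 52.1-fold that of stage 4, 11.1 ± 1.41 (n = 2). Behind the earlier values were 0 to 12 reads per library, against 265 to 521 in stage 5. The mean of this gene rose from 1.09 in stage 1 to 11.1 in stage 4, a climb that the added 10 brought within the band.

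Ro07_G34259, one of the genes lowest before stage 5, had no reads in any of the 6 libraries of stages 1 and 2. A floor of 3 reads per library stands for 0.957 to 5.01 normalised counts in those libraries, by counting error only. The gene stood at 1.17, 7.69 and 3.76 in stage 3 and at 4.84 and 5.90 in stage 4, from 2 to 7 reads each. In stage 5 it stood at 159.6, 102 and 78.3. The stage 5 libraries did not overlap the others, and the mean of 113 ± 41.8 was 21.1-fold that of stage 4.

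Ro03_G15855 and Ro04_G16583, covered by many reads, were also higher at stage 5, at smaller folds than Ro06_G09727 and Ro07_G34259. Both folds lay above the median of the list, 2.21. Ro03_G15855 had the largest stage 5 mean of normalised counts, 25034 ± 7196 (SD, n = 3). It stood at 10495, 8261 and 9361 in stage 1, at 6985, 6559.95 and 7609 in stage 2 and at 9208, 7362 and 8342 in stage 3. Stage 4 gave 9962 and 9604, and stage 5 gave 26518, 17212 and 31371. The highest earlier stage mean was that of stage 4, and stage 5 was 2.56-fold above it. Ro04_G16583, the next by that mean, stood at 5572 and 5491 in stage 4 and at 14009.97, 10975 and 15100.5 in stage 5, a 2.42-fold difference of means. Its libraries of stages 1 to 3 ranged from 3905 to 6483, below every stage 5 library. After quantile normalization both scores were negative, at -0.62 for Ro03_G15855 and -0.14 for Ro04_G16583.

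The most even members at stage 5 differed by almost nothing between its libraries. Ro01_G29480 stood at 1317, 1288 and 1334 normalised counts in stage 5. Stage 1 libraries held 327 to 367, stage 2 held 439 to 464, stage 3 held 426 to 546 and stage 4 held 573 and 641. Means climbed at each step within the allowed band, from 343 ± 20.7 to 607 ± 48.5, before the stage 5 mean of 1313 ± 23.3. Ro06_G20514 stood at 2016, 1921 and 1971 in stage 5 and between 702 and 1016 in every earlier library. Its earlier stage means, 846 to 968, were in no order of the stages. With equal totals the score of Ro06_G20514 was -0.13, while that of Ro01_G29480 was 0.50.

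Ro03_G32809, chosen after its values were seen for its rank of 10 and its even libraries, joined a larger fold to a similar evenness. It stood at 847 and 729 in stage 4 and at 3589, 3519 and 3287 in stage 5. The highest library of stages 1 to 3 held 676. The stage 5 mean of 3465 ± 158 gave a score of 2.12.

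**Figure D3:**
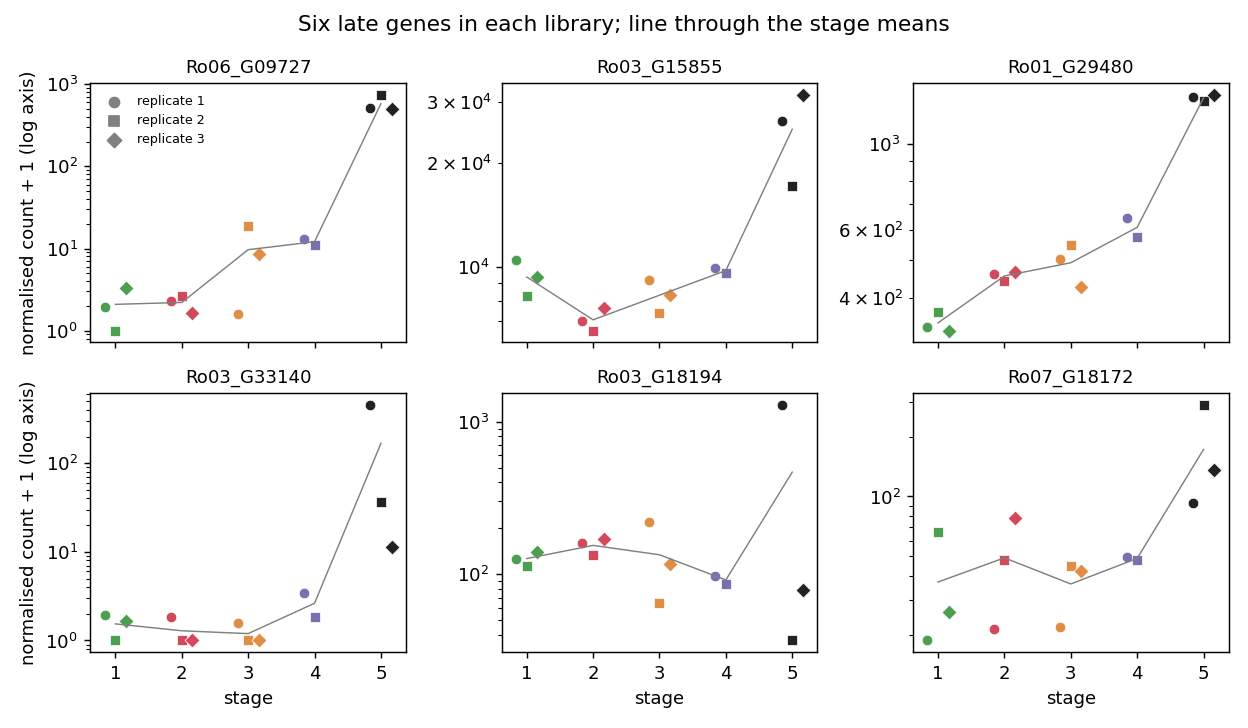
Normalised counts plus 1 (log axis) of 6 genes in every library, by stage (x axis) and replicate (marker shape), with a grey line through the stage means. In the upper row the 3 stage 5 libraries lie together above the others (Ro06_G09727 at 494 to 733), and in the lower row 1 of them stands apart (Ro03_G18194 at 1282 against 35.9 and 78.3; Ro07_G18172 at 288 against 92.05 and 134).

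In 90 members all 3 stage 5 libraries lay above all 11 others, against 11.1% of the 19234 tested genes. The rule used this contrast, so nothing is read from the comparison. In 5 members 2 stage 5 libraries lay above all others and in 5 only 1 did. The 10 genes with overlap had scores of up to 3.00, so a high score did not mean that the libraries were separate.

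Replicates of stage 5 were the least alike for these genes. The median SD over replicates, as log2 of the normalised count plus 10, was 0.21, 0.16, 0.23, 0.15 and 0.28 from stage 1 to stage 5. Over all tested genes the same medians were 0.21, 0.17, 0.21, 0.13 and 0.22. The distance between the highest and lowest stage 5 library had a median of 0.52 over the members and 0.42 over all tested genes. It was under 1 in 81 members and at least 2 in 8, while 1.15% of the tested genes and 0.167% of the 5384 genes with a level start reached 2. A mean of 3 libraries can be carried by 1 of them, so the rule itself lets such genes in, and their number is given as a description.

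Replicate 1 carried most of the uneven members. Of the 8 members with a distance of at least 2, 6 were highest in replicate 1, 2 in replicate 2 and 0 in replicate 3. The same split was not counted for all tested genes with such a distance, so nothing is read from it. Over all members, 40 were highest in replicate 1, 26 in replicate 2 and 34 in replicate 3. The lowest library was replicate 2 for 48, replicate 3 for 32 and replicate 1 for 20. Over all tested genes the highest library was replicate 1 in 32.8%, replicate 2 in 34.9% and replicate 3 in 32.3%, and the lowest was replicate 1 in 37.8%, replicate 2 in 34.6% and replicate 3 in 27.6%. The 3 libraries held 28529382, 9913885 and 18482104 reads, so replicate 1 was the deepest. The part of depth in these counts was not tested.

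Ro03_G18194 was the most uneven of all. It stood at 1282 normalised counts in stage 5 replicate 1 and at 35.9 and 78.3 in replicates 2 and 3, from 1309, 13 and 53 reads. Stage 1 libraries held 113 to 139.7, stage 2 held 134 to 169, stage 3 held 64.04 to 219.5 and stage 4 held 85.1 and 96.8. Stage 5 therefore held both its highest value and its lowest. The stage 5 mean of 465 ± 707 gave a score of 1.54, and without stage 5 replicate 1 the score was -1.29.

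Ro03_G33140 had the next highest score after Ro06_G09727, and the size of that score also rested largely on that library. It stood at 452, 35.9 and 10.3 in stage 5, from 462, 13 and 7 reads, and had 0 to 3 reads in each earlier library. All 3 stage 5 values lay above the others, of which the highest was 2.42. Its score of 3.92 became 1.51 without stage 5 replicate 1. Ro01_G19765 stood at 641, 19.4 and 28.1 in stage 5 and at up to 29.8 in earlier libraries, so 2 of its stage 5 libraries lay within the earlier range. Its score of 3.00 became 0.17 without replicate 1.

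Other members were carried by replicate 2. Ro06_G28722 and Ro05_G26146 were picked after their values were seen, as the members with a distance of at least 2 that were highest in that library. Ro06_G28722 stood at 32.3, 259.9 and 36.9 in stage 5 and between 18.5 and 62.9 before. Ro05_G26146 stood at 58.8, 290.3 and 90.1 in stage 5 and between 23.3 and 70.2 before. In both genes replicate 1 of stage 5 lay inside the earlier range. Without replicate 2 their scores were -0.34 and 0.24.

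Leaving out single stage 5 libraries showed how much of the list rests on each. Without replicate 1, 89 of the 100 genes still passed the rule, 5 having lost the score and 6 the minimum mean. Without replicate 2, 96 passed, and without replicate 3, 99. The genes lost without replicate 1 included 4 of the 10 highest scores, Ro03_G33140, Ro07_G34259, Ro01_G19765 and Ro06_G22374. Of these, Ro01_G19765 fell below the score limit, at 0.17. Ro03_G33140, Ro07_G34259 and Ro06_G22374 were lost on the minimum mean only, with scores of 1.51, 2.71 and 1.69. Leaving out any library of stages 1 to 4 cost 0 to 9 members, each by widening the earlier band past 1.

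**Figure D4:**
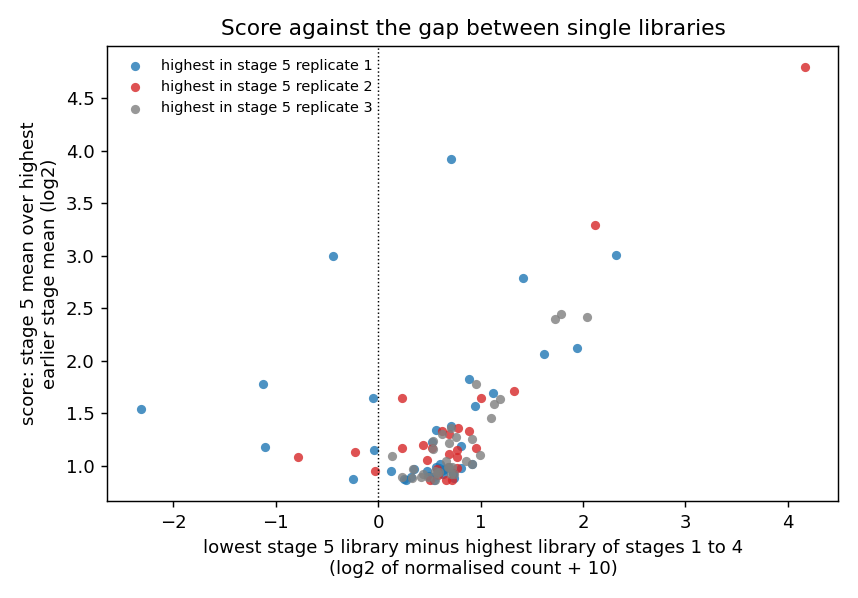
Each point is 1 of the 100 genes, with the distance from its highest library of stages 1 to 4 to its lowest stage 5 library (x axis, log2 of normalised count + 10) and its score (y axis, log2), coloured by its highest stage 5 replicate. The 10 genes left of the dotted line overlap with earlier libraries, down to -2.32, and Ro06_G09727 lies alone at 4.17.

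Replicates within stages were compared by their library names. In stages 1, 2, 3 and 5 the first replicate is the library named br1, and stage 4 has none. A br1 difference may be one between 1 coded sample and a pair of libraries of another. A term for br1 was fitted with limma across all 19234 tested genes, with 1 mean per stage. With all libraries it called 681 genes (3.54%) at a Benjamini-Hochberg adjusted p below 0.05, and 5 of the 100 members. The stage 5 br1 library can itself carry a gene into the list, so nothing is read from this count. Without stage 5 replicate 1 the term rests on stages 1 to 3, whose means but not whose differences between replicates entered the rule. It then called 246 genes (1.28%) and 1 of the 100 members. This count is near the share over all genes, so nothing is read from it about the list.

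That member was Ro03_G33107, higher in the br1 library of each stage that has one. It stood at 193 against 128 and 119 in stage 1, 179 against 76.9 and 88.8 in stage 2 and 413 against 146 and 124 in stage 3. In stage 5 it stood at 1074 against 326 and 186, and the stage 4 libraries held 133 and 178. Without stage 5 replicate 1 the difference was 1.12 ± 0.22 on the log2 scale (SE, limma adjusted p 0.0392). Its score of 1.18 became 0.16 without that library, so its place in the list rests on it.

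In the other 4 genes the br1 library was also the highest or the lowest of its stage in all 4 stages, without passing the test on stages 1 to 3. The fit with all libraries had picked these 4 genes on the same values, so their differences are descriptions only. Differences on that fit were 0.58 ± 0.17 for Ro04_G07127 (limma adjusted p 0.134) and 0.58 ± 0.14 for Ro01_G01183, which lies outside the rule for named genes (0.0781). They were -1.21 ± 0.34 for Ro07_G18172 (limma adjusted p 0.127) and -0.37 ± 0.09 for Ro04_G15145 (0.0862). Ro07_G18172 stood at 17.9 in br1 against 65.3 and 25.2 in stage 1 and at 92.05 against 288 and 134 in stage 5.

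For completeness, the limma contrasts between stages are given with their background. From stage 4 to stage 5, 87 of the 100 members were called higher, where 7.66% of all tested genes were. Against stages 1, 2 and 3 the members called higher in stage 5 numbered 96, 95 and 93, where 33.4%, 30.4% and 15.5% of all genes were. The rule used these contrasts and nothing is read from the counts. Over all genes 1473 were called higher and 2075 lower from stage 4 to stage 5, against 774 and 2926 with equal totals, where the median of all genes moved to -0.17 on the log2 scale. With only the libraries of stages 4 and 5 in the fit, 50 members were called.

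The members were spread over all 7 prefixes of the identifiers. Prefix Ro03 held 19, Ro02 18, Ro07 17, Ro06 15, Ro01 and Ro04 11 each and Ro05 9. As a share of the tested genes of a prefix this ran from 0.335% for Ro05 to 0.717% for Ro07. The prefixes are taken as labels only, since no annotation was used. In the order of the table, neighbouring members of a prefix were a median of 236 rows apart, and 6 of 93 such pairs lay within 10 rows. No spacing of other genes is set beside these values, so nothing is read from them.

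The nearest pair was in adjacent rows and differed in course before stage 5. Ro03_G05929 was at 205 ± 44.8, 190.04 ± 18.5, 321 ± 42.6 and 384 ± 32.0 normalised counts in stages 1 to 4, close to the limit of the band. It reached 864, 647 and 773 in stage 5. Ro03_G05930 was at 1031 ± 39.1, 1332 ± 58.4, 1372 ± 142 and 1512 ± 217 and reached 2485, 2615 and 3554. Replicate 1 was the highest stage 5 library of the one and the lowest of the other.

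On prefix Ro07, 3 members lay within 10 rows and shared their highest stage 5 library. Ro07_G04748 stood at 2084, 2059.5 and 2561 in stage 5 and at 1258 and 1099.9 in stage 4. Ro07_G04753, which is 4 rows on, stood at 673, 569 and 1191 in stage 5 and at 281 and 366 in stage 4. Ro07_G04742, 6 rows before and named after its values were seen, stood at 4925, 4384 and 7667 in stage 5 and at 1849 and 1555 in stage 4. Replicate 3 was the highest stage 5 library of all 3, and none of the genes listed between them passed the rule. Over the whole table only 373 of 33253 genes passed it, so nothing is read from their absence. Of all members 34 were highest in replicate 3, and other near pairs did not share a highest library. Ro07_G20526 and Ro07_G20632, 4 rows apart, were highest in replicates 2 and 3. So were Ro01_G29471 and Ro01_G29480, 9 rows apart. Both pairs were named after their values were seen, and nothing is read from a shared library.

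A further near pair lay on prefix Ro06, 7 rows apart, and both of its genes were highest in stage 5 replicate 1. Ro06_G22374 stood at 276, 58.1 and 50.2 in stage 5 and at 0 to 12.6 before. Ro06_G22353, named after its values were seen, stood at 306, 8.29 and 10.3 in stage 5 and at 4.97 to 29.8 before. In the other 2 stage 5 libraries Ro06_G22353 was thus within its earlier range while Ro06_G22374 was above it. Without stage 5 replicate 1 their scores were -0.84 for Ro06_G22353 and 1.69 for Ro06_G22374.

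The 2 genes most like the group were left out for a wide band over stages 1 to 4. Over 14 libraries, the log2 values of Ro01_G26557 had the highest Pearson correlation of any non-member with the mean profile of the 100 genes, 0.993. Its stage means of 2.57, 3.38, 7.63 and 19.5 climbed past the allowed band (a range of 1.23) before 219 ± 19.1 in stage 5. Ro01_G29600, at 0.99, had no reads in stages 1 and 2 and stood at 176, 188 and 142 in stage 5, with a range of 1.23 as well. In all, 57 tested non-members correlated at 0.95 or more, of which 31 had a wider band, 12 a stage 5 mean under 100 and 14 passed the rule below the 100 highest. Among members 22 reached 0.95, the median was 0.92 and the lowest 0.17. These correlations share the libraries and the step at stage 5 and are descriptions only.

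At the edge of the list the values on either side were almost equal. The last members, Ro05_G01971 and Ro04_G00137, had scores of 0.8611 and 0.859, and the first genes left out, Ro02_G10405 and Ro05_G14872, had 0.8582 and 0.8571. The widest band inside was 0.993, in Ro01_G27728, and the nearest one outside with a score high enough was 1.0011, in Ro06_G08256. The lowest stage 5 mean inside was 100.4, in Ro02_G00787, and the nearest below the minimum was 96.2, in Ro02_G35199. A further 713 genes with a score above 0.5 and the stage 5 minimum were left out because their earlier stages ranged over more than 1.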

How the data were processed

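The authors deposited 1 table of normalised signal, in which DESeq2 size factors divide the read counts of a gene, per its title and the submitters' processing notes. These notes also name Trimmomatic and HISAT2. No source used here gives versions, the read counter, the genome build or the annotation. Dividing by the value of 1 read gave whole reads for 100% of the values (tolerance 0.01 read). Columns were matched by library name, and groups and replicate numbers come from the titles, which number the stage 4 libraries br2 and br3 as 1 and 2.

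The members, the rule and the tests were chosen with earlier results of these data known. Log2(value + 1) was fitted in limma 3.58.1 (R 4.3.3) with all 14 libraries, 1 mean per stage, a trended prior variance and two-sided p-values adjusted over 19234 genes (at least 2 libraries at 10 or more). The term for br1 libraries was added for the test within stages. The recovered reads were also tested with edgeR 4.0.16 and DESeq2 1.42.0. The fits were also run on simulated counts, with independent libraries and the same spread setting for every gene. These counts do not copy the shared title codes or the uneven stage 5 libraries, so no conclusion is drawn from them.

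Genes were named by a fixed rule: at most 2 per feature and direction. The features were the highest and lowest scores (inside and just outside the list), stage 5 mean, range over stage 5 libraries, stage 4 against stages 1 to 3, lowest early mean, br1 term, nearest identifiers and likeness of profile. Others are said to be chosen after their values were seen.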

Additional observations from a re-analysis of the deposited data

How the results depend on the processing

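The cause of each move below was not tested. The 373 genes passing the rule became 99 with equal total reads, 238 with quantile normalization, 149 with a band of at most 0.5, 708 with a band of at most 2, 183 with the lowest stage 5 library in place of its mean and 218 with the highest single library of stages 1 to 4 (the last 2 chosen after seeing the data). Of the 100 members, those still passing numbered 24 with equal total reads, 43 with quantile normalization and 23 with a band of at most 0.5. Those still among the 100 highest numbered 24, 36 and 23 under these settings, 56 with a pseudocount of 50 and 30 with a band of at most 2. With a pseudocount of 1, 83 members still passed and 83 were among the 100 highest. The median score of 1.09 was 0.35 with equal total reads and 0.80 with the lowest stage 5 library. Leaving out single libraries gave 349 to 430 passing genes, 89 to 100 members passing, 80 to 97 among the 100 highest and median scores of 1.04 to 1.10.

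Scores turned negative for Ro04_G00137 (-0.36), Ro06_G20514 (-0.13) and Ro04_G07127 (-0.11) with equal total reads, and for Ro03_G15855 (-0.62) and Ro04_G16583 (-0.14) with quantile normalization. They did so for Ro03_G18194 with stage medians (-0.93), without stage 5 replicate 1 (-1.29, against 2.08 without replicate 2) and with the lowest stage 5 library (-1.83). With that library Ro01_G19765 (-0.029) and Ro03_G33107 (-0.28) turned negative too. Of 440 scores of 20 named members under 22 settings, 379 moved by less than the spread between replicates, 51 moved by more and 10 changed sign. Leaving out a library outside the highest earlier stage often cannot move a score, and Ro06_G09727 kept 4.80 without any single stage 1 library. Even so, Ro06_G09727 failed the rule without stage 1 replicate 3 and without stage 3 replicate 1. Its band then reached 1.01 and 1.03. Ro01_G19765, uneven in stage 5, counts among the 379 at 1.95 with equal total reads, against 3.00. The 379 are therefore no measure of stability.

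From stage 4 to stage 5 the 3548 calls over all genes became 2213 with quantile normalization and 1456 with only the libraries of these stages, which called 50 members in place of 87. Leaving out single libraries gave 1720 to 3743 calls, 1785 and 1720 without stage 4 replicate 1 and 2, and 59 to 88 members. With a replicate block 3972 genes and 91 members were called, and with a replicate block by library name, added after seeing the data, 4018 and 87. The labels give no meaning to a shared number. Deviations from the stage means correlated across genes at 0.24 to 0.39 in the 3 same-numbered pairs of stages 1 and 2 and at 0.14 to 0.39 in the 6 replicate 1 pairs of stages 1, 2, 3 and 5. Of the 12 pairs of replicates 2 and 3 among these stages 3 were over 0.1, and libraries matched their own number best in 27 of 36 comparisons. The stage 4 and 5 pairs stood at 0.03 and 0.02, so no pairing was used for that step. The calls for the br1 libraries, 681 genes and 5 members, became 397 and 1 with a flat prior variance, 1821 and 12 with DESeq2, and 440 and 3 with a further term for the title letters. Without a filter 3 members were called. Leaving out single libraries gave 246 to 746 genes and 1 to 5 members. Stage 4, with 2 libraries, and members with few early reads are the least precisely measured.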
